A study of Mus musculus with 4 samples.

Results

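The genes of mannose 6-phosphate (M6P) sorting were examined in cultured mouse macrophages of 2 genotypes. The set held 10 genes, chosen by symbol from the 34745 genes of the expression table, and all 10 were found and passed the filter on low counts. They encode the receptors Igf2r and M6pr, the tagging enzymes Gnptab, Gnptg and Nagpa, the Vps10p-domain receptors Sort1 and Sorl1, and the coat adaptors Gga1, Gga2 and Gga3. Total RNA was sequenced in 4 libraries, 2 per genotype. The libraries labelled WT came, per the study's text, from G3bp1 f/f mice, in which the gene of the stress granule (SG) scaffold G3BP1 carries loxP sites. The libraries titled KO have the genotype label G3bp1mac-/- and came from the same floxed mice crossed to Lyz2-Cre, a recombinase active in monocytes, macrophages and granulocytes. The study's text calls the cells bone marrow-derived macrophages and names no stress treatment for these libraries. Age and sex of these mice, and how many mice went into a library, are not given in the sources used here, so p-values measure the spread between these libraries only.

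M6P sorting delivers newly made acid hydrolases to lysosomes. In the Golgi, the phosphotransferase encoded by Gnptab and Gnptg adds a capped phosphate to the sugar chains of a hydrolase, and the uncovering enzyme Nagpa removes the cap. The M6P receptors Igf2r and M6pr then bind the exposed tag in the trans-Golgi network (TGN), GGA adaptors load the receptors into clathrin-coated carriers, and retromer with other factors returns emptied receptors. Igf2r also binds the growth factor IGF2 at the cell surface and clears it, and in most mouse tissues it is an imprinted gene whose paternal copy is silenced by the antisense RNA Airn. The study names Igf2r among candidate mRNAs of SGs.

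Total gene counts ranged from 16724241 to 19747909 per library, and 12418 genes were tested. The macrophage genes Cd68, Lyz2, Csf1r and Adgre1 had from 5911 to 383749 counts in every library. The targeted gene G3bp1 was still counted in the libraries labelled KO, at 1307 and 2296 beside 1691 and 2875 for WT (log2 fold change -0.61, SE 0.40, edgeR adjusted p 0.904). Its log2 ratio of KO to WT was -0.57 for number 1 and -0.63 for number 2, but the genotypes overlapped (104 and 180.4 CPM in WT, 70.1 and 117 CPM in KO). Leaving out WT replicate 1 or 2 gave fitted values of -0.95 and -0.19, and leaving out KO replicate 1 or 2 gave -0.28 and -1.03. Since the values are sums over all exons, they give no check of the deleted part, and every direction given for KO in these libraries rests on the labels. In separate qRT-PCR and Western blot assays, the paper reports efficient loss of G3BP1 in bone marrow-derived macrophages of G3bp1mac-/- mice. In a principal component analysis, 60.4% of the variance lay on a component that set the libraries numbered 1 apart from those numbered 2, and 32.1% on one that set the genotypes apart. Log2 ratios of KO to WT within a number are therefore given for the 10 sorting genes.

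Transcript levels were compared between genes as FPKM, fragments scaled by gene length and by library total. M6pr, the small cation-dependent M6P receptor, was the most abundant of the 10 genes. It had 69.4 and 101 FPKM in WT and 88.2 and 101 FPKM in KO, above 97.1% of the 17991 genes with any count. Igf2r, the large cation-independent receptor, came next with 23.5 and 31.0 FPKM in WT and 35.2 and 31.3 FPKM in KO. Per length, the mean of M6pr over the 4 libraries was 2.97 times that of Igf2r, and the ranges of both genes were apart in both genotypes.

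**Figure D1:**
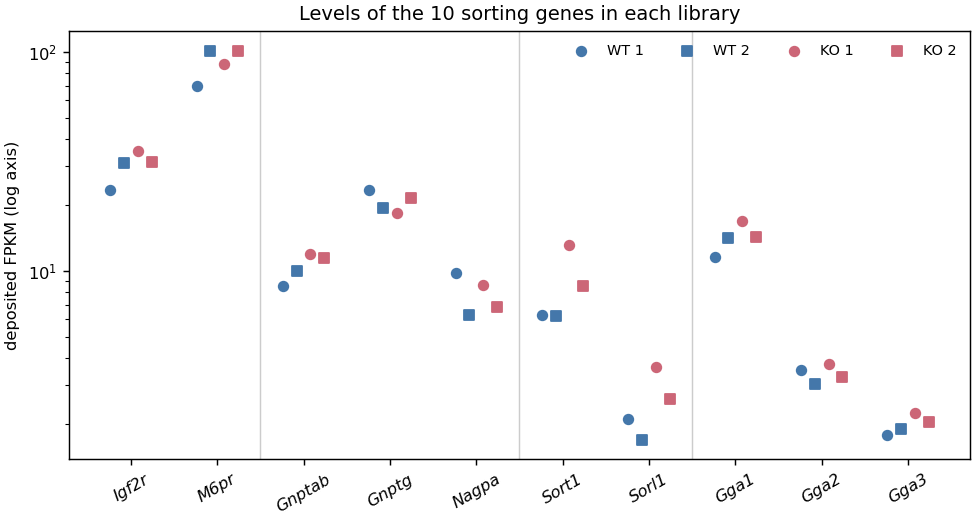
Deposited FPKM on a log axis for the 10 sorting genes, 1 point per library, with circles for number 1, squares for number 2, blue for WT and red for KO. M6pr lies highest at 69.4 to 101 FPKM, Gga3 has the lowest mean at 1.79 to 2.26, and the single lowest point is Sorl1 in WT replicate 2 at 1.70. Both KO points lie above both WT points for Igf2r, Gnptab, Sort1, Sorl1, Gga1 and Gga3, by narrow margins for Igf2r and Gga1.

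Below the receptors, Gnptg, the gamma subunit of the phosphotransferase, had 23.3 and 19.4 FPKM in WT and 18.4 and 21.4 in KO. Gga1 had a mean of 14.2 FPKM over the 4 libraries and Gnptab, the alpha and beta subunit precursor, a mean of 10.5. From M6pr down to Gnptab, the ranges of neighbours in this order did not overlap within either genotype, although those of Igf2r and Gnptg nearly met in WT. Sort1 (sortilin, a receptor that sorts some proteins without the M6P tag) and Nagpa had means of 8.55 and 7.88 FPKM, and their ranges overlapped in both genotypes. Gga2 had a mean of 3.41 FPKM, Sorl1 (SorLA, a sorting receptor of the same domain family) 2.52 and Gga3 2.0. The ranges of Gga2 and Sorl1 overlapped in KO, and those of Sorl1 and Gga3 overlapped in WT, as did those of Gnptab and Sort1 in KO, so these neighbours could not be ordered beyond their spread.

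Per length, Gga1 was the main GGA adaptor transcript. This order rests on the division by length, 3034 bases for Gga1 and 14561 for Gga2, since Gga2 had more counts than Gga1 in every library. Gga1 made up 68.4% and 74.0% of the summed GGA FPKM in WT and 73.8% and 72.7% in KO. Gga2 gave 20.96% and 16.0% in WT against 16.4% and 16.8% in KO, and Gga3 gave between 9.84% and 10.6% in all 4 libraries. The genotypes overlapped in all 3 shares.

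The promoters were read from the RefSeq promoter sequences of GRCm38.p6, which span 250 bases before to 50 bases after an annotated start site. Sequences were found for 8 of the 10 genes, all but M6pr and Sort1. They were searched for CACGTG, the E-box core that reads the same on both strands and is bound by several basic helix-loop-helix factors, among them TFEB and its relatives, known regulators of lysosomal genes. The promoter of Igf2r held 2 matches. Its 250 bases before the start site, chr17:12769707-12769956 on the minus strand, are shown 5′ to 3′ with the matches in capitals.
Igf2r promoter: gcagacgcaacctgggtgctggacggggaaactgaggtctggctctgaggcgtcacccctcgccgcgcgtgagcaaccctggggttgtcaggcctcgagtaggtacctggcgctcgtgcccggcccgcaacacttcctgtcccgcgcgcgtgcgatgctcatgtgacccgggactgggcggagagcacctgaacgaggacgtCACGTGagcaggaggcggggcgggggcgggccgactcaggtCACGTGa

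The other matches lay close to the start site as well, in Nagpa (2 matches), Gnptg, Sorl1 and Gga2 (1 match each). They are shown 5′ to 3′ on the gene's strand, with the match in capitals and the surrounding bases in lower case, to let the flanks be compared with those of Igf2r.
Nagpa, chr16:5204005-5204034, minus strand: ctggcctggaatCACGTGgggcgagcccac
Nagpa, chr16:5203990-5204019, minus strand: gtggggcgagccCACGTGaccggagcacca
Gnptg, chr17:25240120-25240149, minus strand: ccggctgtcactCACGTGaccgtgagaccc
Sorl1, chr9:42124299-42124328, minus strand: gctgcgagctcaCACGTGacggcacggcgc
Gga2, chr7:122021182-122021211, minus strand: ggcccgccccgtCACGTGcctctcagtgtc

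The matches began between 48 bases before and 6 bases after the start site. Both matches of Igf2r and the match of Gnptg were part of the longer palindrome TCACGTGA, which contains the core. The core was present in the promoters of 5 of the 8 sorting genes (62.5%), against 8.09% of the 27025 genes with a promoter sequence and 12% of the 9233 tested genes with one. It was also present in 10 of 31 genes of M6P-tagged hydrolases (32.3%) in 8 of 26 genes of retrieval to the Golgi (30.8%), in 3 of 18 genes of TGN coat and adaptor partners (16.7%) and in 0 of 3 genes of other sorting receptors and tag-independent sorting. The longer palindrome was present in 2 of the 8 sorting genes, in 3 of the 31 hydrolase genes, in 4 of the 26 retrieval genes, in 1 of the 18 TGN genes and in 2.23% of the tested genes. These shares describe letters in a window and were given no test. No binding was measured. Matches were absent from the windows of Gnptab, Gga1 and Gga3.

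**Figure D2:**
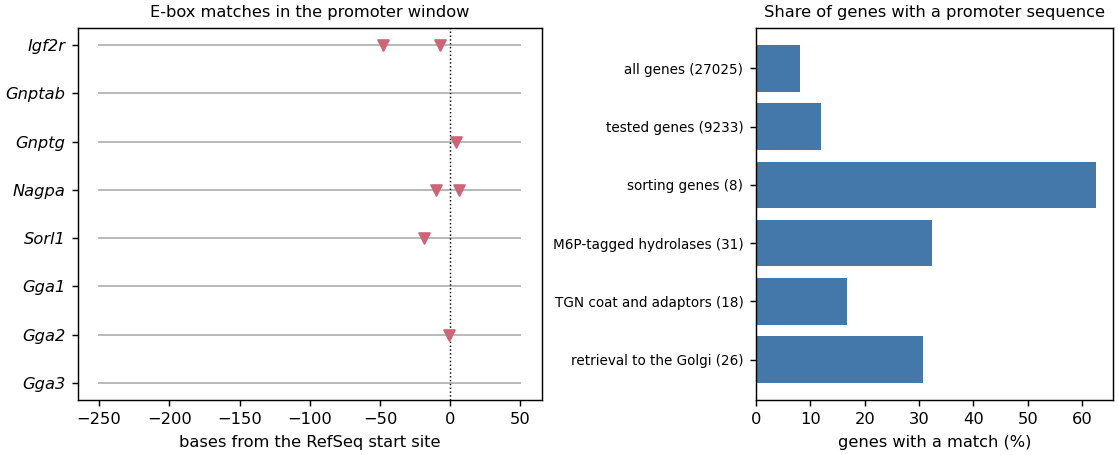
Left, positions of the E-box core in the promoter windows of 8 sorting genes, in bases from the RefSeq start site, with 1 triangle per match. Right, percentage of genes with a match, with the number of genes that had a promoter sequence in brackets: 62.5% of the sorting genes against 12% of the tested genes.

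Whether the sorting genes differed between genotypes was asked with edgeR's quasi-likelihood test over all genes, with levels as CPM, counts scaled by library total and by TMM, a correction for library composition. Calls required an adjusted p below 0.05 together with a log2 fold change beyond 1 in either direction. Of the 10 genes, 0 were called, at a background of 0% of the 12418 tested genes. At an unadjusted p under 0.05 there were also 0 of the 10, against 6.63% of all tested genes, and 0 of the 10 were called by the DESeq2 Wald test (1.46% of all tested genes) or the edgeR exact test (1.84%). In CPM, the lower KO library exceeded the higher WT library for Sort1, Sorl1, Gnptab and Gga3, 4 of 10 genes, where 20.0% of all tested genes did so. The reverse held for 0 of the 10, where 16.9% of all tested genes did. The median log2 fold change was 0.09, with 7 of the 10 above 0, beside a median of 0.04 over all tested genes. With a correction for gene length, described below, the median of the 10 turned to -0.086, and only Sort1, Sorl1 and Gga1 stayed above 0. In bulk RNA, a change in the number of cells of a type and a change in RNA per cell cannot be told apart.

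**Figure D3:**
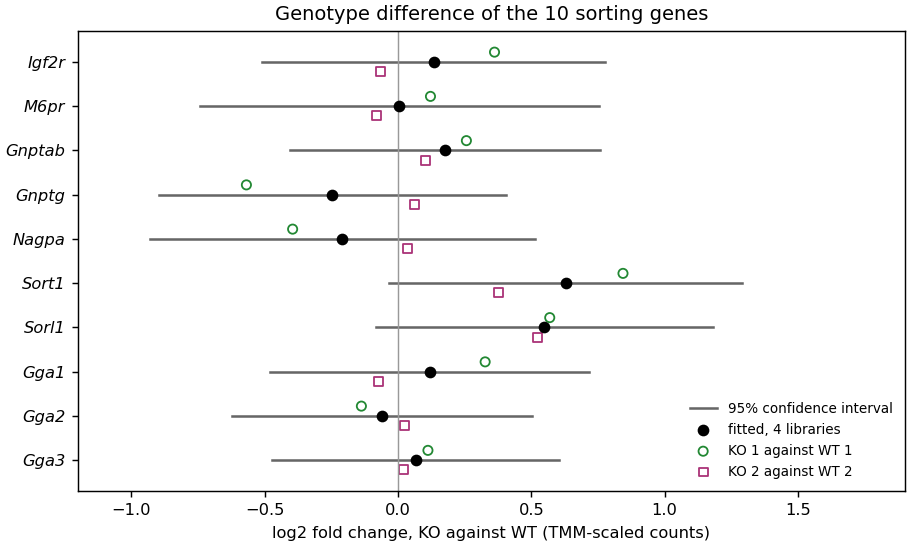
Log2 fold change of KO against WT for the 10 sorting genes, as the fitted value with its 95% confidence interval (black) and as the ratio within number 1 (green circles) and within number 2 (purple squares). All 10 intervals span 0, and the within-number ratios of Sort1, Sorl1, Gnptab and Gga3 are positive in both numbers.

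Igf2r (ENSMUSG00000023830, chr17:12682406-12769664, GRCm38, minus strand) has 48 exons in its main annotated transcript. It had 239.8 and 321 CPM in WT and 308 and 307 CPM in KO. In CPM both KO values lay between the WT values, so the genotypes overlapped. In FPKM, which carries no TMM factor, both KO values were above both WT values, at 35.2 and 31.3 against 23.5 and 31.0. Whether the genotypes overlapped for Igf2r thus depended on the scale. Its log2 fold change of 0.13 (SE 0.25, 95% confidence interval -0.51 to 0.78) had an edgeR adjusted p of 0.975, and its interval does not exclude values up to 0.78. The libraries numbered 1 gave a log2 ratio of 0.36 and those numbered 2 gave -0.065. The sign rested on WT replicate 1, without which the value was -0.061, and it also turned to -0.073 with a correction for gene length, described below.

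The antisense transcript Airn starts within intron 2 of Igf2r and overlaps 28354 bases of the gene, but no exon of Airn overlaps an exon of Igf2r in GENCODE. Airn counts were low, 94 and 108 against 70 and 98, or 5.80 and 6.78 CPM in WT against 3.76 and 4.98 CPM in KO. The genotypes did not overlap, with -0.52 as the fitted log2 value (SE 0.32, edgeR adjusted p 0.899). The value was -0.33 when KO replicate 1 was left out and -0.75 when KO replicate 2 was. Igf2, which encodes the growth factor ligand of Igf2r, was close to undetected, at 0 and 1 counts for the WT libraries and 5 for each KO library, and was too low to be tested.

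The transcripts nearest to Igf2r in their course over the 4 libraries were Taok2, Atp11b, Ascc2, Kdm1b and Map7d1. They were ranked by the root mean square distance of log2 CPM centred on each gene's mean, which was 0.012 for Taok2 and 0.017 for Map7d1, with Pearson's r from 0.996 to 0.998 over 4 libraries. All genes share these 4 libraries and their scaling, and the likeness is a description only. Among the sorting genes, Gga1 followed Igf2r most closely, at rank 139 of the other tested genes and a distance of 0.051. Igf2r and Gga1 were both lowest in WT replicate 1 and alike in the other 3 libraries, where Gga1 had 45.6, 46.1 and 43.3 CPM against 36.7 in WT replicate 1. M6pr was at rank 2166 (distance 0.15).

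M6pr (ENSMUSG00000007458, chr6:122308720-122317680, GRCm38, plus strand, 8 exons) had 369 and 544 CPM in WT and 402 and 514 CPM in KO. It was higher in the library numbered 2 than in that numbered 1 in both genotypes, by 0.56 on the log2 scale in WT and 0.35 in KO. This difference was larger than that between genotypes, where the fitted log2 value was 0.0048 (SE 0.29, 95% confidence interval -0.74 to 0.75, edgeR adjusted p 0.998). Number 1 gave a ratio of KO to WT of 0.12 and number 2 one of -0.081. Within a library, the FPKM ratio of Igf2r to M6pr was 0.338 and 0.307 in WT and 0.399 and 0.311 in KO. The ratio overlapped between genotypes.

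Sort1 (ENSMUSG00000068747, chr3:108284082-108361511, GRCm38, plus strand) had the largest difference of the 10 genes in the fit to all 4 libraries without length correction. Its counts of 1769 and 1737 (WT) and 3648 and 2787 (KO) came to 109 and 109 CPM in WT and 196 and 142 CPM in KO. The WT libraries were nearly alike, both KO libraries were higher, and the KO libraries differed from each other more than the WT libraries did. A log2 fold change of 0.63 was fitted for Sort1 (SE 0.26, 95% confidence interval -0.033 to 1.29, edgeR adjusted p 0.788). The ratio was 0.84 within number 1 and 0.38 within number 2. Without KO replicate 1 the fitted value was 0.38, and without KO replicate 2 it was 0.84. Leaving out WT replicate 1 put Sorl1 (0.70) above Sort1 (0.63). With a correction for gene length Sort1 was at 0.32, smaller in size than Gga2 (-0.35). A robust linear form of that correction gave 0.40 for Sort1, larger in size than Sorl1 (0.36) and Gga2 (-0.27).

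Sorl1 (ENSMUSG00000049313, chr9:41964720-42124297, GRCm38, minus strand) was the other gene with a fitted difference over 0.5. It had 26.1 and 21.3 CPM in WT and 38.8 and 30.7 CPM in KO. The fitted log2 value was 0.55 (SE 0.25, 95% confidence interval -0.081 to 1.18, edgeR adjusted p 0.831), and its ratios within the numbers were close to each other, at 0.57 and 0.52. The FPKM ratio of Sort1 to Sorl1 was 2.98 and 3.65 in WT and 3.60 and 3.29 in KO, which overlapped. Divided by Igf2r, Sort1 FPKM came to 0.268 and 0.200 for WT and to 0.374 and 0.272 for KO, where the KO values lay above the WT values by a narrow margin. The remaining Vps10p genes Sorcs1, Sorcs2 and Sorcs3 had at most 19 counts in a library and were not tested.

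**Figure D4:**
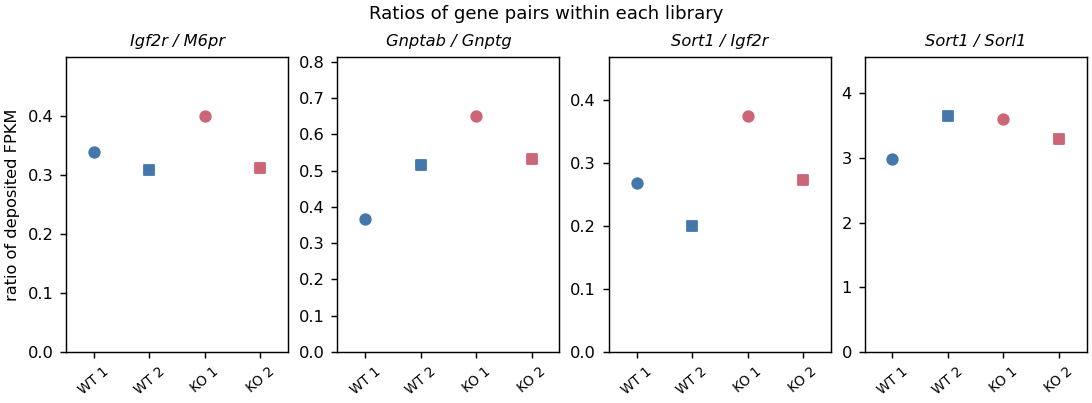
Ratio of deposited FPKM between gene pairs, 1 point per library, with axes starting at 0. Gnptab over Gnptg (0.367 to 0.650) and Sort1 over Igf2r (0.200 to 0.374) do not overlap between WT (blue) and KO (red), while Igf2r over M6pr and Sort1 over Sorl1 do.

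Marker lists of other cells were summed beside the Sort1 and Sorl1 values, and some of these sums separated the genotypes. All 10 genes of a stromal marker list (Col1a1, Col1a2, Col3a1, Dcn, Lum, Pdgfra, Pdgfrb, Postn, Sparc and Acta2) had positive log2 fold changes, 9 of them with KO above WT without overlap (20.0% of all tested genes were), although 0 were called, and 0 of them were at 0 counts in any library. Their summed level was 106 and 119.7 CPM in WT and 481 and 447 CPM in KO. The summed neutrophil markers were 28.2 and 25.7 CPM in WT and 7.89 and 11.8 CPM in KO, with Elane and Mpo at 0 counts in every library. Summed B cell markers were 21.5 and 22.5 CPM in WT and 11.6 and 10.9 CPM in KO. Erythroid markers summed to 9.43 and 7.03 CPM in WT and 1.66 and 2.29 CPM in KO, and mast cell and basophil markers to 32.8 and 33.8 CPM in WT and 17.2 and 20.6 CPM in KO. The T and NK cell markers summed to 1.48 and 1.00 CPM in WT and 0.912 and 0.864 CPM in KO. All 5 had at most 9 counts in a library and were not tested, so the separation of this sum rests on counts near the floor. Sums that overlapped between genotypes were those of dendritic markers, 1.11 and 2.70 CPM in WT and 2.36 and 4.37 CPM in KO, and of endothelial markers, 6.35 and 4.33 CPM in WT and 7.14 and 2.79 CPM in KO. Macrophage marker sums, most of which was Lyz2, overlapped as well, at 26430 and 24558 CPM in WT and 21108 and 24587 CPM in KO. In that list, the entries of Itgam under separate identifiers had opposite log2 fold changes, 0.82 (SE 0.31) and -1.11 (SE 0.58). The part of these cells in the levels of the sorting genes was not tested.

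The tagging enzymes differed in sign in the fit without length correction, and also with its robust linear form, while all 3 were below 0 with the loess correction described below. Gnptab (chr10:88379132-88447329, GRCm38) had 85.1 and 101 CPM in WT and 102 and 108 CPM in KO, with 0.18 as the log2 fold change (SE 0.23, edgeR adjusted p 0.964) and ratios within the numbers of 0.26 and 0.10. Gnptg (chr17:25233331-25240124, GRCm38) had 69.2 and 58.3 CPM in WT and 46.6 and 60.8 CPM in KO, and the log2 value was -0.25 (SE 0.26, edgeR adjusted p 0.961). Number 1 gave a ratio of -0.57 and number 2 one of 0.061, so the lower KO value was seen in number 1. The FPKM ratio of Gnptab to Gnptg, the transcripts of a single enzyme complex, was 0.367 and 0.516 in WT and 0.650 and 0.532 in KO. The KO values were above both WT values, but KO replicate 2 and WT replicate 2 differed by less than the WT libraries did.

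Nagpa (chr16:5195289-5204012, GRCm38) had 39.0 and 25.5 CPM in WT and 29.6 and 26.2 CPM in KO. WT replicate 1 was above the other 3 libraries, and without it the fitted log2 value, -0.21 (SE 0.28, edgeR adjusted p 0.965), became 0.13, while the ratios within the numbers were -0.40 and 0.037. Gnptg shares 1113 exonic bases with Unkl on the opposite strand, and Unkl had 42 to 74 counts against 869 to 1197 for Gnptg. Whether counting used the strand is not given in the sources used here.

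Of the 3 GGA adaptors, Gga1 and Gga2 had overlapping CPM values in both genotypes. Gga1 (chr15:78877190-78894585, GRCm38) had 36.7 and 45.6 CPM in WT and 46.1 and 43.3 CPM in KO, at a log2 fold change of 0.12 (SE 0.24). In FPKM, its KO values of 16.9 and 14.2 were above its WT values of 11.6 and 14.1. Gga2 (chr7:121986722-122021222, GRCm38) had 54.0 and 47.3 CPM in WT and 49.1 and 48.1 CPM in KO, at -0.06 (SE 0.22). Gga3 (chr11:115584255-115604051, GRCm38) had 19.6 and 21.1 CPM in WT and 21.2 and 21.4 CPM in KO, at 0.07 (SE 0.21). Their edgeR adjusted p values were 0.977, 0.990 and 0.986. Within numbers 1 and 2, the ratios were 0.33 and -0.074 for Gga1, -0.14 and 0.024 for Gga2, and 0.11 and 0.020 for Gga3. With the length correction Gga2 was at -0.35 and Gga3 at -0.16. The KO libraries of Gga3 lay above the WT libraries by less than the WT libraries differed from each other, and 127 of its exonic bases overlap Mrps7 on the opposite strand, a gene with 726 to 1032 counts in a library.

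Fitted differences followed gene length over the whole table. The median log2 fold change was -0.33 in the shortest eighth of the tested genes, with a length of up to 1860 bases, and 0.19 in the longest, from 12161 bases on. Gnptg (2827 bases) and Nagpa (3820 bases) are among the short sorting genes, while Sorl1 has 11809 and Sort1 16550 bases. Gga1 (3034 bases, log2 fold change 0.12) and Gga2 (14561 bases, -0.06) went against this order. With this trend removed by a loess fit in each library, Sort1 had a log2 fold change of 0.32 and Sorl1 of 0.28, while Gnptg had -0.25, Nagpa -0.29 and Gga2 -0.35. Gnptab and Gga3 turned to -0.026 and -0.16.

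The cargo of the pathway was described with a list of 40 genes of hydrolases and their cofactors that carry the M6P tag. All 40 were tested, and 0 were called or had an unadjusted p under 0.05, which 6.63% of all tested genes had. Their median log2 fold change was -0.0074, with 19 above 0. It ranged from -0.11 without WT replicate 2 to 0.030 without WT replicate 1, with -0.098 when KO replicate 1 was left out and 0.022 when KO replicate 2 was. These genes took 10.5% and 9.43% of all counts in WT and 10.5% and 9.33% in KO, a share that did not separate the genotypes. On the TMM scale their sum was 110073 and 100167 CPM in WT and 94408 and 93599 CPM in KO. There both KO sums lay below both WT sums. Whether the list separated the genotypes thus depended on the TMM factors, 0.955 and 0.942 for WT and 1.12 and 0.997 for KO. The aspartic protease Ctsd, the most abundant, had 31981 and 27893 CPM in WT and 26525 and 26407 in KO, at a log2 fold change of -0.18 (SE 0.15).

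Among the hydrolase genes, KO was below WT without overlap for 10 of 40 (16.9% of all tested genes were) and above for 6 of 40 (20.0% of all tested genes were). The cysteine protease Ctsl was at -0.42, the ganglioside activator Gm2a at -0.49 and the cholesterol carrier Npc2 at -0.46. Plbd2, a lysosomal phospholipase B-like protein, was at 0.30, and Arsa, the arylsulfatase that acts on sulfatide, at 0.31. Their edgeR adjusted p values ran from 0.790 to 0.933. Summed over the list, hydrolase FPKM exceeded the summed FPKM of Igf2r and M6pr by 340.3 and 211 times in WT and by 246 and 208 times in KO.

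**Figure D5:**
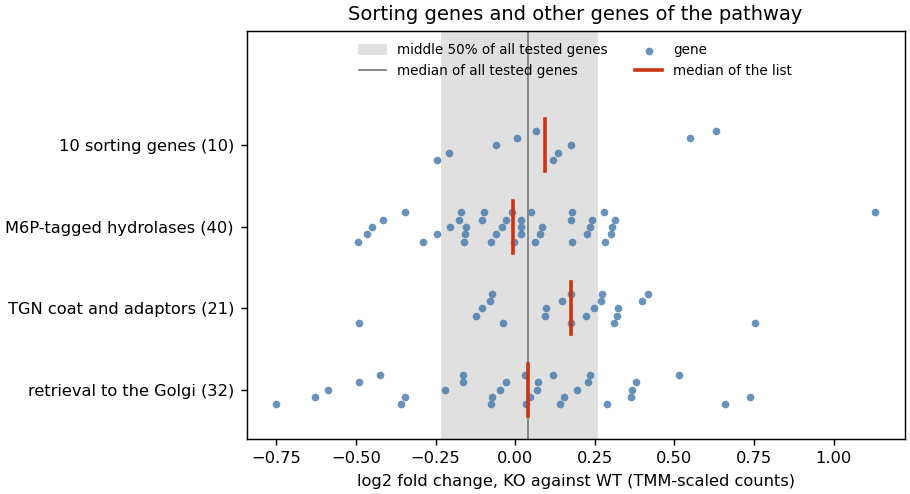
Log2 fold change of KO against WT for each tested gene of 4 lists (blue points, spread vertically for visibility), with the median of each list in red. The grey band holds the middle 50% of all tested genes, from -0.23 to 0.26, and the list medians run from -0.0074 for the hydrolases to 0.18 for the TGN coat and adaptor genes.

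Of 22 genes of clathrin, AP-1 and other TGN coat partners, 21 were tested and 0 were called. Their median log2 fold change was 0.18, with 15 of the 21 above 0. Without KO replicate 1 this median was 0.017 and without WT replicate 1 it was 0.076, with the length correction 0.078, and within number 2 it was 0.059. Synrg, which encodes an AP-1 binding protein, had 12.8 and 12.8 CPM in WT and 25.5 and 17.6 CPM in KO, and its log2 fold change reached 0.75 (SE 0.28, edgeR adjusted p 0.682). It was 1 of the 21 with an unadjusted p under 0.05, a share no higher than the 6.63% of all tested genes. The clathrin heavy chain Cltc was at 0.40 (SE 0.24), and the light chain Clta was at -0.49 (SE 0.28), without overlap between genotypes. The GTPase Arf1, which recruits GGA proteins and AP-1 to the TGN, was at -0.08 (SE 0.22).

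Retrieval of receptors to the Golgi was described with 32 genes of retromer, sorting nexins, WASH, GARP and tethering or fusion factors. All 32 were tested, 0 were called, and the median log2 fold change was 0.04. The median was -0.046 with the length correction, -0.024 without KO replicate 1, -0.0099 without WT replicate 2 and -0.0010 with DESeq2 size factors. Of the retromer core, Vps35 was at -0.03 (SE 0.22) with 430.4 and 452 CPM in WT and 418 and 447 in KO, while Vps29 was at -0.49 (SE 0.24), with 218 and 183 CPM in WT and 134 and 152 CPM in KO. Snx27, a sorting nexin that works with retromer, was at 0.74 (SE 0.31) and the sorting adaptor Pacs1 at 0.66 (SE 0.30), while the SNARE Vamp4 was at -0.63 (SE 0.25). Snx5 was at -0.36 (SE 0.37) with overlapping genotypes. Their edgeR adjusted p values ran from 0.758 to 0.993.

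Sorting without the M6P tag was represented by Scarb2, which encodes the receptor LIMP-2. It had 275 and 227 CPM in WT and 264 and 239 CPM in KO, and both KO values lay between the WT values. On the log2 scale Scarb2 was at 0.0053 (SE 0.24, edgeR adjusted p 0.997).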

How the data were processed

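Per the study's methods and the labels' processing notes, the authors filtered reads with Seqtk, aligned them with HISAT2 2.0.4 and counted fragments per gene with StringTie 1.3.3b. They deposited raw counts and, beside each count, an FPKM value, which carries the library total but no TMM factor. The notes name the build mm39. In the GRCm38 annotation GENCODE M21, 34344 of the deposited identifiers were found, 27763 of them with an identical locus, the 10 sorting genes included. Positions are therefore on GRCm38. Strand use in counting is not given in the sources used here.

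The count table was tested with edgeR 4.0.16 under R 4.3.3: filterByExpr (minimum count 10, minimum total 15), TMM, glmQLFit and glmQLFTest with genotype as the only term, two-sided, with Benjamini-Hochberg adjustment over the 12418 tested genes. SE and intervals came from the F statistic. CPM used TMM-scaled totals, and ratios within a number had 0.5 counts added. Reads carried no molecular identifiers. Alternatives were DESeq2 1.42.0 (size factors or Wald test), the edgeR exact test, other filters, a replicate block, each library left out, no minimum fold change, and loess correction for gene length (span 0.5). A robust linear form of that loess was run first and replaced after its counts of calls had been seen, so it is kept as an added alternative.

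The 10 genes and the lists were chosen with earlier results of these data known, and lists were given no test. Named besides the 10 were G3bp1, Igf2, Airn, cell type markers, the 5 genes nearest to Igf2r and, per list, the 2 genes highest in mean FPKM and up to 2 per direction with the smallest p among non-overlapping genes. A gene that this rule names is not reported here. Sorcs1, Sorcs2, Sorcs3, Unkl and Mrps7 were named after their values were seen.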

Additional observations from a re-analysis of the deposited data

How the results depend on the processing

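None of the 10 sorting genes was called in any alternative, and over these alternatives the lowest adjusted p was 0.0808, for Sort1 with the replicate block. The number of genes called in the whole table moved from 0 to 181 in the DESeq2 Wald test, 229 in the edgeR exact test, 664 with the replicate block, and 319 with the replicate block plus length correction. It was 0 to 1 when a library was left out. The robust linear form of the length correction, which was run first and replaced by the other after its counts had been seen, gave 623 with the block, so this count depends on the form of the loess. The median of the 10 genes, 0.09, became -0.086 under length correction (-0.078 with block) and -0.024 under its robust linear form, and was 0.027 to 0.26 when single libraries were left out. Signs turned under the length correction, first without and then with the block, for Igf2r (-0.073, -0.066), M6pr (-0.099, -0.090), Gnptab (-0.026, -0.027) and Gga3 (-0.16, -0.16). Under the robust linear form they turned for M6pr (-0.041, -0.029) and Gga3 (-0.088, -0.089), and for Igf2r without the block only (-0.0059). M6pr, close to 0, was also at -0.031 with DESeq2 size factors, -0.031 in the Wald test and -0.0085 without a filter. Leaving out a library gave -0.061 to 0.32 for Igf2r, -0.25 to 0.28 for M6pr, -0.51 to 0.13 for Nagpa, -0.027 to 0.25 for Gga1, -0.19 to 0.039 for Gga2, 0.058 to 0.27 for Gnptab and -0.46 to -0.065 for Gnptg. Sort1, Sorl1 and Gnptg kept their signs in every alternative. The cause of these moves was not tested.

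Nothing in the labels ties a number to a day or batch, and with 2 pairs the data cannot settle whether the numbers pair the samples. The deviations of WT 1 and KO 1 from their group means had a correlation of 0.727 over genes. In the fit with the replicate block, Sort1 was at 0.61 (edgeR adjusted p 0.0808) and Sorl1 at 0.55 (edgeR adjusted p 0.159). The targeted gene G3bp1 was at -0.60 (edgeR adjusted p 0.0853), at -0.76 (0.0432) with the length correction added and at -0.70 (0.0017) with its robust linear form. With 2 libraries per genotype, the confidence intervals of the 10 genes reach from -0.93 to 1.29 on the log2 scale.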
